A study of Mus musculus with 16 samples.

Results

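The fibrocystin and polycystin cyst genes are 7 genes of cyst disease of the bile duct and kidney tubule: Pkhd1, Cys1, Pkd1, Pkd2, Bicc1, Prkcsh and Sec63. They were chosen by name, and a probe was taken as theirs where the array design gives that gene name and the spot is not a control. This gave 15 probes for all 7 genes, of 41174 probes and 28034 gene names on the array. Every one of the 15 passed the filter on dim probes, which 34588 probes and 23309 genes passed. Pkhd1 and Pkd2 had 3 probes each, Bicc1 had 2, Sec63 had 4, and Pkd1, Cys1 and Prkcsh had 1 each.

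Expression was measured in liver cells of c129/S3 mice, sorted by flow cytometry on the surface antigens MIC1-1C3 (M) and CD133, the product of Prom1. Cells carrying both antigens (M+133+) or neither (M-133-) were taken from untreated livers and from livers whose hosts had 0.1% DDC in the diet over 2 weeks. DDC (diethoxycarbonyl-dihydrocollidine) is a porphyrin-inducing drug used in mice to provoke a ductular reaction, and no age, sex or genetic change is given for the animals. There were 4 samples of M+133+ cells from each kind of liver, 4 of M-133- cells after DDC and 2 of M-133- cells without treatment. The labels call them replicates but do not say whether each came from its own animal, so p-values measure the spread between these samples. Some M+133+ and M-133- samples have titles that open with the same number, whose meaning is not given. The main fit did not pair them. RNA was amplified as cDNA before labelling, and 2 of the 14 samples were hybridized to 2 arrays each, so that there were 16 arrays.

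Fibrocystin, the large membrane protein encoded by Pkhd1, the ciliary protein cystin encoded by Cys1 and the polycystins encoded by Pkd1 and Pkd2 all reside at least in part in the primary cilium of bile duct and kidney tubule cells. Loss of fibrocystin causes recessive polycystic kidney disease with hepatic fibrosis, and loss of either polycystin causes the dominant disease, in which bile duct cysts are common. Bicc1 is an RNA-binding protein whose loss gives cystic kidneys in mice. Prkcsh (the beta subunit of glucosidase II) and Sec63 (a partner of the protein channel of the endoplasmic reticulum) are both genes of polycystic liver disease and help to make glycoproteins such as the polycystins.

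Array brightness at the 75th percentile lay between 602.4 and 2733.0 intensity units, with 60.3% to 77.3% of probes well above background. The dimmest arrays, at 602.4 and 702.8, were both of untreated M-133- cells. The latter repeats M-133- untreated sample 2, whose other array stood at 2075.4. The share well above background ran from 69.7% to 77.3% on M+133+ arrays and from 60.3% to 75.9% on M-133- arrays. Levels below are log2 signals minus the 75th percentile of the array, so a level of 0 is the signal of that percentile. Prom1 had a mean level of 1.58 ± 0.31 (SD, n = 4) without and 1.51 ± 0.66 (SD, n = 4) with DDC in M+133+ cells, and in M-133- cells -8.04 ± 0.43 (SD, n = 2) and -6.47 ± 2.17 (SD, n = 4). Of 17 bile duct epithelium markers, 14 were called higher in M+133+ cells of untreated livers and 13 after DDC. Of 16 hepatocyte markers, 15 and 14 were called lower there, as were 13 and 12 of 13 endothelial markers. The mean level of the bile duct markers ran from 2.18 to 3.89 in M+133+ samples and from -3.76 to -1.52 in M-133- samples. Of 12 stellate cell and fibroblast markers, 5 and 10 were called lower in M+133+ cells. Of 12 Kupffer cell and macrophage markers, 1 was called higher and 1 lower in untreated livers, and none after DDC. Their mean level was -0.56 and -4.87 in M-133- untreated samples 1 and 2. M+133+ DDC sample 2 had hepatocyte and Kupffer means of 1.21 and -1.39. The other M+133+ DDC samples ran from -2.56 to -0.87 and from -5.74 to -4.22. In such bulk samples, fewer cells of a type and less RNA per cell cannot be told apart.

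The members fell into a set that differed between the sorts and a set that was not called. In untreated livers 4 of the 7 members were called higher in M+133+ cells (Pkhd1, Cys1, Bicc1 and Pkd2) and none was called lower, at a Benjamini-Hochberg adjusted p under 0.05 in limma. Over all genes tested, 3.62% were called higher and 5.17% lower. The median difference was 1.82 over the 7 members and -0.07 over all genes. After DDC 2 members, Pkhd1 and Cys1, were called higher, against 6.44% of all genes, and the medians were 0.66 for the members and 0.31 for all genes. The members chosen here were not used as sorting antigens, but Prom1 and the bile duct markers moved with them in both comparisons, and the part of cell composition in each difference was not tested.

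**Figure D1:**
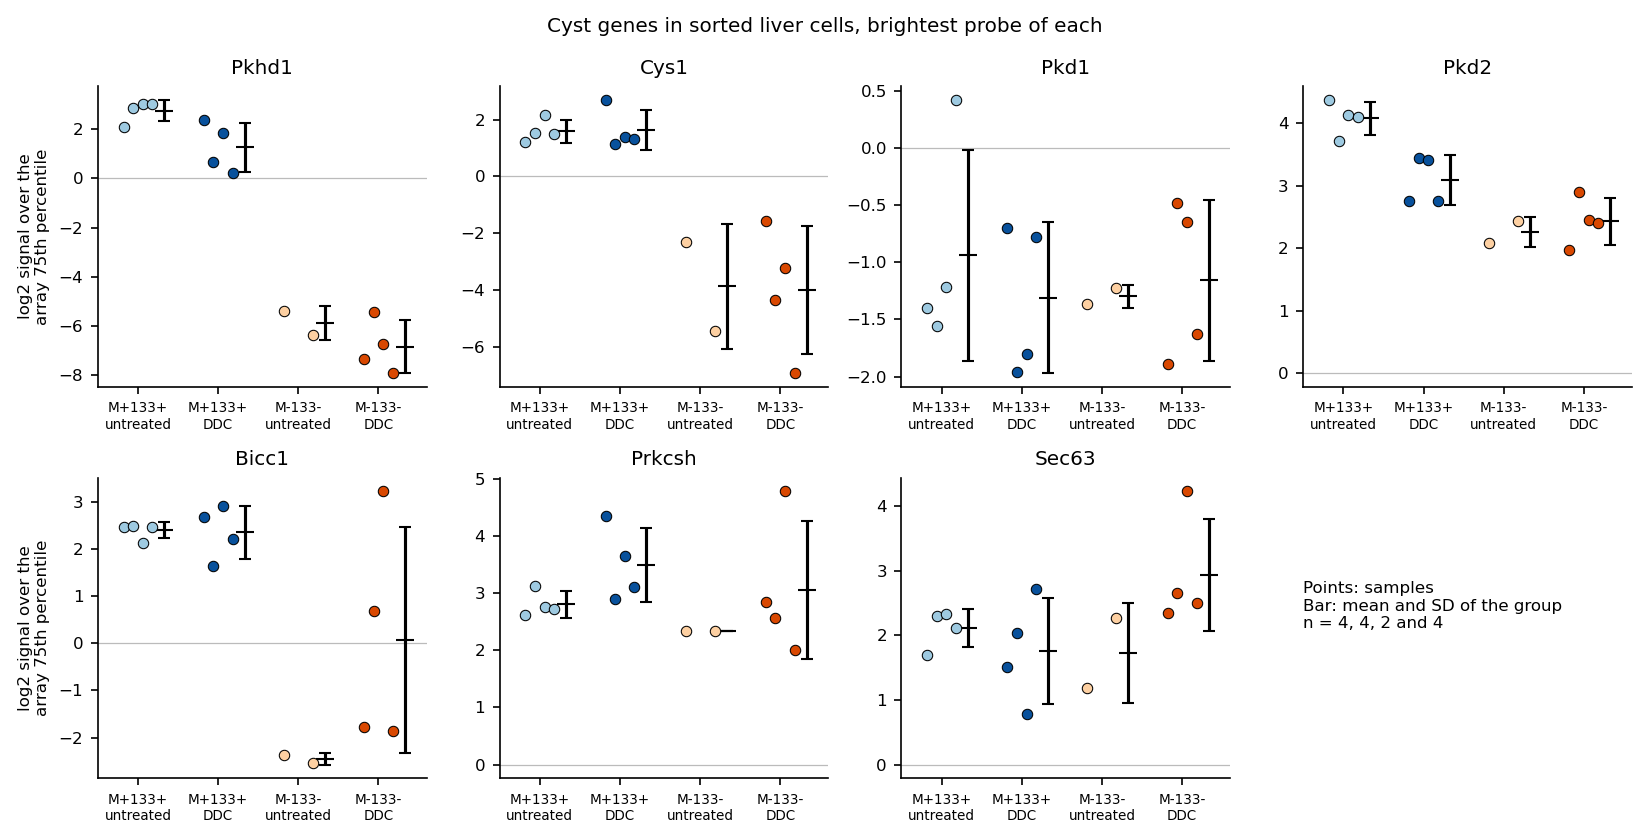
Level of the brightest probe of each gene in every sample, as log2 signal minus the 75th percentile of the array (vertical axis, with its own range in each panel), for the 4 groups on the horizontal axis. Points are samples, and bars give the group mean and SD (n = 4, 4, 2 and 4 from left to right). For Pkhd1 and Cys1 all M+133+ samples lie above 0 and all M-133- samples below it, while Pkd1, Prkcsh and Sec63 show samples of both sorts at like levels.

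Pkhd1 showed the widest separation among the 7. At its brightest probe the untreated M+133+ samples read 2.10, 2.88, 3.03 and 3.03 in sample order, and the M-133- samples -5.38 and -6.35. After DDC the M+133+ samples read 2.36, 0.65, 1.83 and 0.21, and the M-133- samples -7.32, -5.42, -6.71 and -7.90. The M+133+ samples were high in every case and the sorts did not overlap under either treatment. In M-133- cells the probe was near the limit of detection, being well above background on 2 of 3 untreated and 1 of 4 DDC arrays.

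The difference between sorts was 8.63 in untreated livers (SE 0.85, adjusted p = 2.59e-05). After DDC it was 8.10 (SE 0.69, adjusted p = 4.07e-06). These sizes rest on dim M-133- signals, so no exact fold is given: with normexp background correction the same differences were 5.85 and 5.58, both called. Slides were told apart by a barcode number in the deposited names of the arrays. Within slides 2 and 4, which each held both untreated sorts, the untreated difference was 9.67 and 8.28. The M-133- arrays on these slides are repeats of the same sample, M-133- untreated sample 2, so the values are not independent. With slide as a fixed block the untreated difference was 8.35. No slide held both sorts after DDC, where the slide block gave 6.84 (adjusted p = 0.00426).

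The 3 probes of Pkhd1 lie far apart along its transcript, starting at bases 1346, 11875 and 12681, and each was called in both sort comparisons when all 34588 probes were tested. The array's annotation, on mouse build mm9, places the probe at base 11875 on the minus strand at chr1:20060520-20060579 and that at base 1346 at chr1:20583266-20583325. Whether a probe lies in an exon, intron or UTR is not given in the sources used here. Both sequences are shown because they read the same gene from sites near its opposite ends, and are printed 5′ to 3′ as on the array.
Pkhd1 base 11875: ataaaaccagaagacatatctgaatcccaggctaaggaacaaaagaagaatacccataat
Pkhd1 base 1346: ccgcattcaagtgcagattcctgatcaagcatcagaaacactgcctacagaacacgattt

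The probe at base 1346 gave differences of 5.98 (SE 1.30, adjusted p = 0.0101) in untreated livers and 4.49 (SE 1.06, adjusted p = 0.0111) after DDC. Its DDC samples overlapped between sorts, since M+133+ DDC sample 4 read -5.14 and M-133- DDC sample 4 read -5.11. The probe at base 12681 gave 8.36 (SE 1.22, adjusted p = 0.000705) and 7.08 (SE 1.00, adjusted p = 0.00028), with no overlap.

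Cys1, whose mutation underlies the cystic kidneys of the cpk mouse, had a single probe on the minus strand at chr12:25350720-25350779 (mm9). It read 1.20, 1.53, 2.16 and 1.48 in untreated M+133+ samples, and -2.31 and -5.44 in M-133- samples. After DDC it read 2.70, 1.15, 1.40 and 1.30 in M+133+ samples, and -1.57, -4.33, -3.23 and -6.92 in M-133- samples. The M+133+ samples lay close together in untreated livers, and after DDC sample 1 stood above the other M+133+ samples. The M-133- samples were low and spread widely, and the sorts did not overlap.

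Its level was higher in M+133+ cells by 5.47 in untreated livers (SE 1.19, adjusted p = 0.00953) and by 5.65 after DDC (SE 0.97, adjusted p = 0.00122). In M-133- cells the probe was well above background on 2 of 3 untreated and 3 of 4 DDC arrays, so no exact fold is given. Normexp correction gave 3.55 and 4.64, both called. The M-133- value in untreated livers is poorly fixed: the repeat arrays of sample 2 read -3.30 and -7.58, the difference within slide 2 was 4.14 and within slide 4 it was 9.05, and without that sample it was 3.90 (adjusted p = 0.164), which ended the call.

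**Figure D2:**
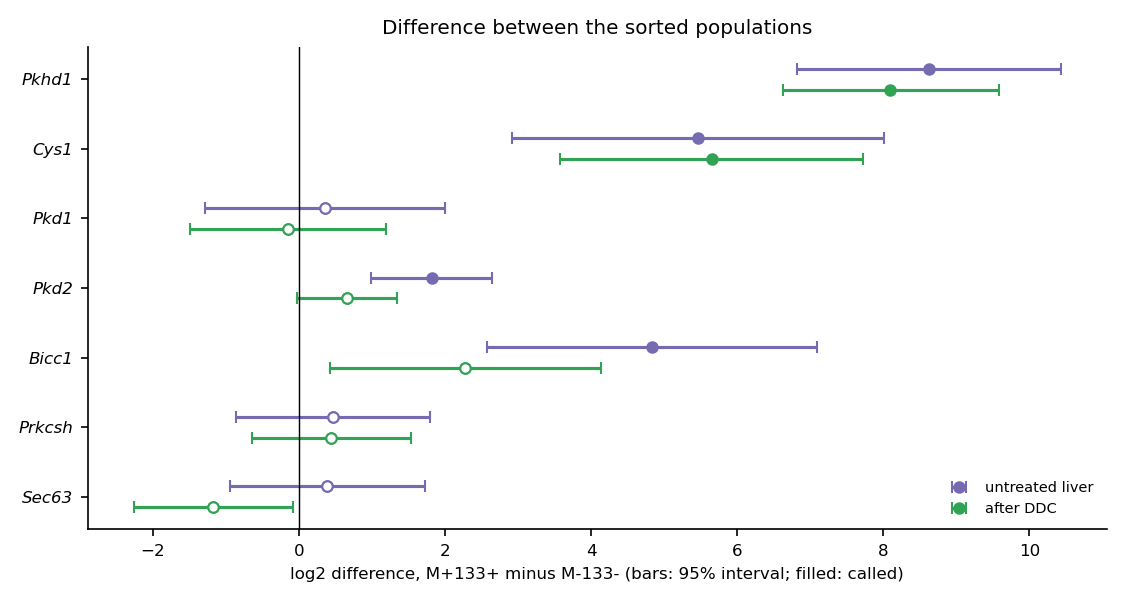
Difference between sorts (M+133+ minus M-133-, log2, horizontal axis) for each gene in untreated livers (4 against 2 samples) and after DDC (4 against 4). Bars are 95% intervals of the fit, and filled points passed an adjusted p of 0.05. Pkhd1 and Cys1 are filled under both treatments, Pkd2 and Bicc1 in untreated livers alone, and Pkd1, Prkcsh and Sec63 under neither.

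The 2 polycystins, which form a receptor and channel complex, did not show the same values. Pkd1 was measured by 1 probe at chr17:24733161-24733220 (mm9, plus strand). It read -1.40, -1.56, -1.22 and 0.42 in untreated M+133+ samples and -1.37 and -1.23 in M-133- samples. After DDC the M+133+ samples read -0.70, -1.96, -1.80 and -0.78, and the M-133- samples -1.89, -0.48, -0.65 and -1.63. Sample 4 of the untreated M+133+ group was the one high value, and the groups overlapped throughout.

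The Pkd1 difference between sorts was 0.36 (95% interval -1.28 to 2.00, adjusted p = 0.884) in untreated livers and -0.15 (95% interval -1.49 to 1.19, adjusted p = 0.918) after DDC. These intervals do not show the levels to be equal. Without M+133+ untreated sample 4 the untreated difference was -0.09, and without any 1 of 4 DDC samples (2 of each sort) the DDC difference turned positive, to at most 0.08.

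Pkd2, which encodes the cation channel of the pair, was called higher in untreated M+133+ cells by its brightest probe, which starts at base 5035. That probe read 4.38, 3.72, 4.13 and 4.10 in M+133+ samples, and 2.09 and 2.43 in M-133- samples. After DDC it read 2.75, 3.45, 3.42 and 2.75 in M+133+ samples and 1.97, 2.90, 2.46 and 2.40 in M-133- samples. The sorts were apart in untreated livers and overlapped after DDC, when the M+133+ samples were all below the lowest untreated M+133+ value.

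The difference was 1.82 in untreated livers (SE 0.39, adjusted p = 0.00833), a fold of 3.53. It was 2.05 and 1.67 within slides 2 and 4, both against M-133- untreated sample 2. After DDC it was 0.66 (95% interval -0.02 to 1.34, adjusted p = 0.207). The change of this difference with treatment, tested as an interaction, was -1.16 (SE 0.50, adjusted p = 0.453) and was not called. Leaving out M-133- untreated sample 1 ended the untreated call (1.65, adjusted p = 0.0993).

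A second Pkd2 probe did not follow the first. It starts at base 2902 and lies at chr5:104932529-104932588 (mm9, plus strand), ahead of the brightest probe at chr5:104934662-104934721. It is shown because the call for Pkd2 after DDC depends on which of the 2 is read.
Pkd2 base 2902: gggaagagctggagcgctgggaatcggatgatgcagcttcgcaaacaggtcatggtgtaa

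At base 2902 the DDC samples read 6.42, 1.24, 2.31 and 4.04 in M+133+ cells and -3.96, 0.95, -0.30 and -3.18 in M-133- cells. In untreated livers it read 2.24, 1.59, 5.18 and 3.10 in M+133+ cells and 0.60 and 3.11 in M-133- cells. The sorts were apart after DDC and overlapped in untreated livers, the reverse of the brightest probe. Its difference was 5.12 after DDC (SE 1.23, adjusted p = 0.0122 over all probes) and 1.17 in untreated livers (SE 1.51, adjusted p = 0.787). The repeat arrays of M-133- untreated sample 2 read -0.00 and 6.23 at this probe, but 2.43 on both arrays at base 5035.

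With the mean of the kept probes in place of the brightest, the Pkd2 difference was 1.78 in untreated livers (adjusted p = 0.254, no longer called) and 2.16 after DDC (adjusted p = 0.0487, called). That mean includes the remaining probe, at base 141 of the record it was placed on, which lies at chr5:104929331-104929390 (mm9). This probe was well above background on 3 of 5 untreated and 1 of 4 DDC M+133+ arrays, and on none of the 7 M-133- arrays.

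Bicc1, the RNA-binding member, was called higher in M+133+ cells of untreated livers. Its brightest probe starts at base 2974 and lies on the minus strand at chr10:70387911-70387970 (mm9). It read 2.47, 2.49, 2.13 and 2.46 in M+133+ samples and -2.36 and -2.53 in M-133- samples. After DDC it read 2.67, 1.64, 2.90 and 2.20 in M+133+ samples and -1.77, 0.68, 3.22 and -1.85 in M-133- samples. The untreated sorts stood apart. The 2 M-133- samples lay close together, but the repeat arrays averaged in sample 2 read -1.65 and -3.41. After DDC, M-133- sample 3 was the highest of all 14 samples.

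The untreated difference was 4.83 (SE 1.06, adjusted p = 0.00993), a fold of 28.5. It was 4.26 and 5.87 within slides 2 and 4, both against M-133- untreated sample 2. After DDC it was 2.28 (95% interval 0.43 to 4.13, adjusted p = 0.105) and was not called. Without M-133- DDC sample 3 it was 3.33 (adjusted p = 0.00301). In untreated livers the call was lost without either M-133- sample, at 4.92 (adjusted p = 0.0811) without sample 1 and 4.75 (adjusted p = 0.0737) without sample 2. In those fits the lone M-133- sample was assumed to vary like the other groups.

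The second Bicc1 probe, at base 169 of the record it was placed on, lies at chr10:70387202-70387261 on mm9. The sequence of the brightest probe is shown because the result after DDC turns on 1 sample at it.
Bicc1 base 2974: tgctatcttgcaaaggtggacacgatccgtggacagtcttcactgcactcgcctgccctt

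At base 169 the M-133- DDC samples read -1.82, -0.07, -2.94 and -1.21 and the M+133+ DDC samples 3.03, 0.99, 1.76 and 0.04. M-133- DDC sample 3 was thus the lowest of its group here and the highest at base 2974. The sorts did not overlap, and the difference was 2.96 after DDC (SE 0.71, adjusted p = 0.012) and 3.80 in untreated livers (SE 0.87, adjusted p = 0.0136). By the mean of both probes the DDC difference was 2.62 (adjusted p = 0.00499).

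**Figure D3:**
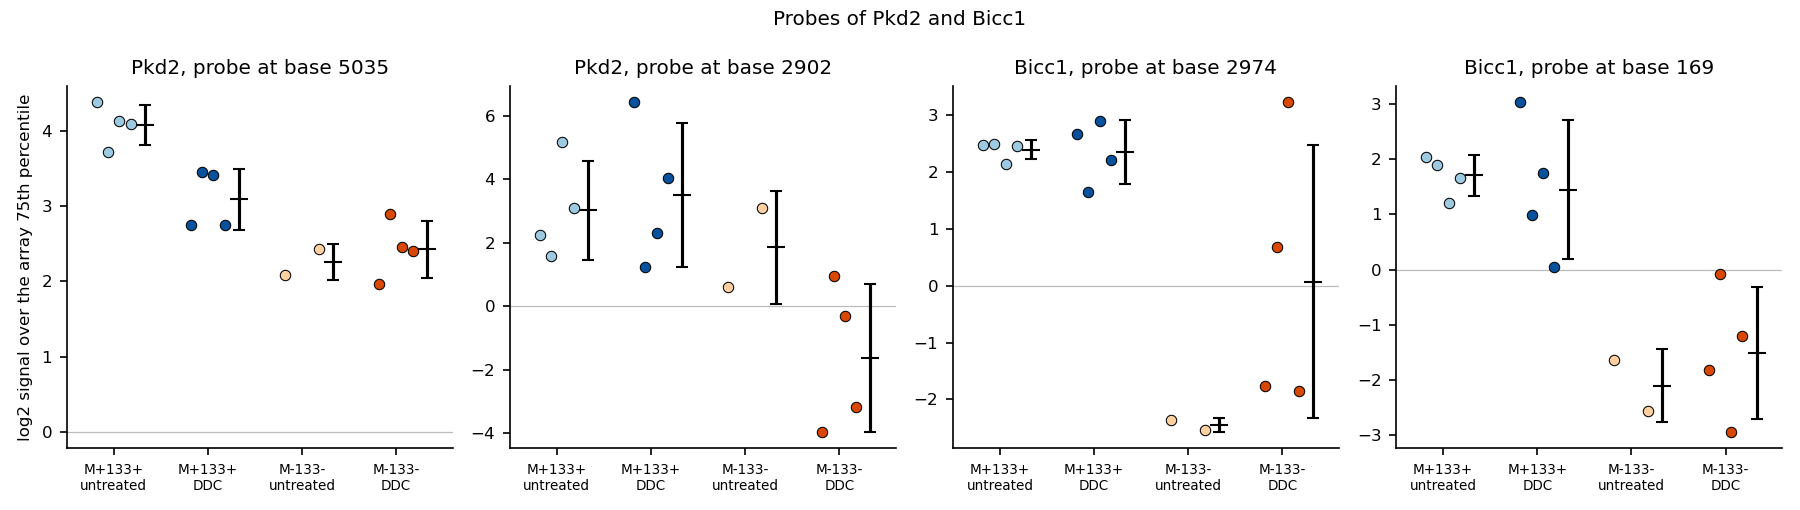
Levels at 2 probes of Pkd2 and 2 probes of Bicc1 in every sample, as log2 signal minus the 75th percentile of the array (vertical axis, with its own range in each panel). Points are samples, and bars give the group mean and SD (n = 4, 4, 2 and 4). After DDC the sorts overlap at base 5035 of Pkd2 and base 2974 of Bicc1 and are apart at base 2902 of Pkd2 and base 169 of Bicc1.

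Prkcsh, which trims glucose from new glycoproteins as part of glucosidase II, was read by 1 probe at chr9:21818528-21818587 (mm9, plus strand). It read 2.61, 3.13, 2.75 and 2.72 in untreated M+133+ samples and 2.33 in both M-133- samples. After DDC it read 4.34, 2.89, 3.64 and 3.10 in M+133+ samples and 2.85, 2.57, 4.78 and 2.00 in M-133- samples. All samples were well above background, and the untreated sorts were apart by a small step while the DDC sorts overlapped.

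The Prkcsh difference between sorts was 0.47 in untreated livers (95% interval -0.86 to 1.80, adjusted p = 0.788) and 0.44 after DDC (95% interval -0.64 to 1.53, adjusted p = 0.643). With single samples left out the latter ran from 0.09 (without M-133- DDC sample 4) to 1.02 (without M-133- DDC sample 3). With Prkcsh, 5 of 7 members had untreated sorts that did not overlap with M+133+ above, a state that 15.8% of all genes shared. After DDC this held for Pkhd1 and Cys1 alone, against 7.67% of all genes.

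Sec63, which couples the channel of the endoplasmic reticulum to its chaperone, was read by 4 probes. The brightest starts at base 2250 and maps to a span of 3957 bases, chr10:42543733-42547689 (mm9, plus strand), so that its 60 bases bridge separated stretches of the genome. It is shown because it is the probe that reads across such a junction.
Sec63 base 2250: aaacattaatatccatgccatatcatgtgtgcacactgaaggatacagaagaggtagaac

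This probe read 1.69, 2.30, 2.33 and 2.11 in untreated M+133+ samples and 1.18 and 2.27 in M-133- samples. After DDC it read 1.51, 2.04, 0.79 and 2.72 in M+133+ samples and 2.34, 2.65, 4.23 and 2.50 in M-133- samples. The sorts overlapped under both treatments, and M-133- DDC sample 3 was the highest of all samples. The differences were 0.38 (95% interval -0.95 to 1.72, adjusted p = 0.838) in untreated livers and -1.17 (95% interval -2.26 to -0.08, adjusted p = 0.162) after DDC. Without M-133- DDC sample 3 the latter was -0.73.

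The other Sec63 probes were not called either. Their untreated differences were 0.47 at base 933, 0.61 at base 3831 and -3.12 at base 5557, and their DDC differences -1.37, 1.05 and 0.68. At base 5557 the untreated M-133- samples, with a mean of 2.05 ± 1.21 (SD, n = 2), lay above all M+133+ samples, with a mean of -1.07 ± 0.59 (SD, n = 4), but the adjusted p was 0.264. The mean of the probes turned the untreated Sec63 difference to -0.42 (adjusted p = 0.864).

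DDC feeding was compared with no treatment in each sort. In M+133+ cells none of the 7 members was called, against 0.24% of all genes (56, with 2912 at an unadjusted p under 0.05). For 2 members, Pkhd1 and Pkd2, the unadjusted p was under 0.05. The Pkhd1 difference was -1.50 (95% interval -2.97 to -0.02, adjusted p = 0.392), with M+133+ DDC sample 1 inside the untreated range. Its probe at base 12681 had -2.24 (SE 1.00, adjusted p = 0.384), with all DDC samples below all untreated ones, and that at base 1346 had -1.96 (SE 1.06, adjusted p = 0.484), with overlap.

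Pkd2 had a DDC difference of -0.99 in M+133+ cells at base 5035 (95% interval -1.67 to -0.31, adjusted p = 0.217). All 4 DDC samples lay below all 4 untreated samples, as they did in 4.26% of genes. The slides that held both treatments gave -0.83 (slide 3) and -1.01 (slide 4). At base 2902 the difference was 0.47 (SE 1.23, adjusted p = 0.927 over all probes).

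The remaining members had DDC differences between -0.37 (Pkd1) and 0.69 (Prkcsh) in M+133+ cells. Bicc1 and Cys1 were nearest to no change, at -0.03 (95% interval -1.89 to 1.82) and 0.04 (95% interval -2.03 to 2.12), intervals that do not show their levels to be equal.

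In M-133- cells none of the 7 was called either, against 1.03% of all genes (239, with 2994 at an unadjusted p under 0.05). At the brightest probes Bicc1 had the largest value, 2.52 (95% interval 0.25 to 4.78, adjusted p = 0.322). Sec63 followed with 1.20 (95% interval -0.13 to 2.54, adjusted p = 0.453). At these probes of both genes all 4 DDC samples lay above both untreated samples, as in 7.08% of genes. Other Sec63 probes gave 1.07 at base 933, -0.87 at base 3831 and -4.00 at base 5557 (adjusted p = 0.241 over all probes). Pkd2 at base 2902 gave -3.48 (adjusted p = 0.337 over all probes).

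A single sample was high at the brightest probes of both Bicc1 and Sec63. Without M-133- DDC sample 3 the Bicc1 difference was 1.47 and the Sec63 difference 0.77, and at base 169 of Bicc1 it was 0.58 with all samples. That sample also held the highest Prkcsh level of all, 4.78. Its mean level over 12 stellate cell and fibroblast markers was 4.56, against 3.23 to 3.70 in the other M-133- DDC samples. It was also highest over 16 hepatocyte markers, at 4.82 against 4.12 to 4.49. Over 12 Kupffer cell and macrophage markers it was lowest, at -3.24 against -2.12 to -1.59. Its 17 bile duct markers averaged -2.10, within their range of -2.19 to -1.52, and its 13 endothelial markers 1.51, within 0.28 to 2.98. The part of these markers in the Bicc1 and Sec63 values was not tested.

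Pkhd1 and Cys1 were not called in M-133- cells, where some bile duct markers were. Of the 17 markers, 4 were called higher after DDC there, with a median difference of 1.51, while Pkhd1 had -0.97 (95% interval -2.78 to 0.83) and Cys1 -0.14 (95% interval -2.68 to 2.41). The Cys1 interval includes the marker median, and the Pkhd1 probe was near the detection limit there. The difference between these genes and the marker list was not tested.

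The DDC effects in the sorts did not differ beyond the test's threshold for any of the 7 members, against 0.257% of all genes called (60, with 2329 at an unadjusted p under 0.05). At the brightest probes the interaction was -2.55 for Bicc1 (95% interval -5.48 to 0.37, adjusted p = 0.57) and -1.55 for Sec63 (95% interval -3.27 to 0.17, adjusted p = 0.555). For the other members apart from Pkd2 it lay between -0.53 (Pkhd1) and 0.18 (Cys1).

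**Figure D4:**
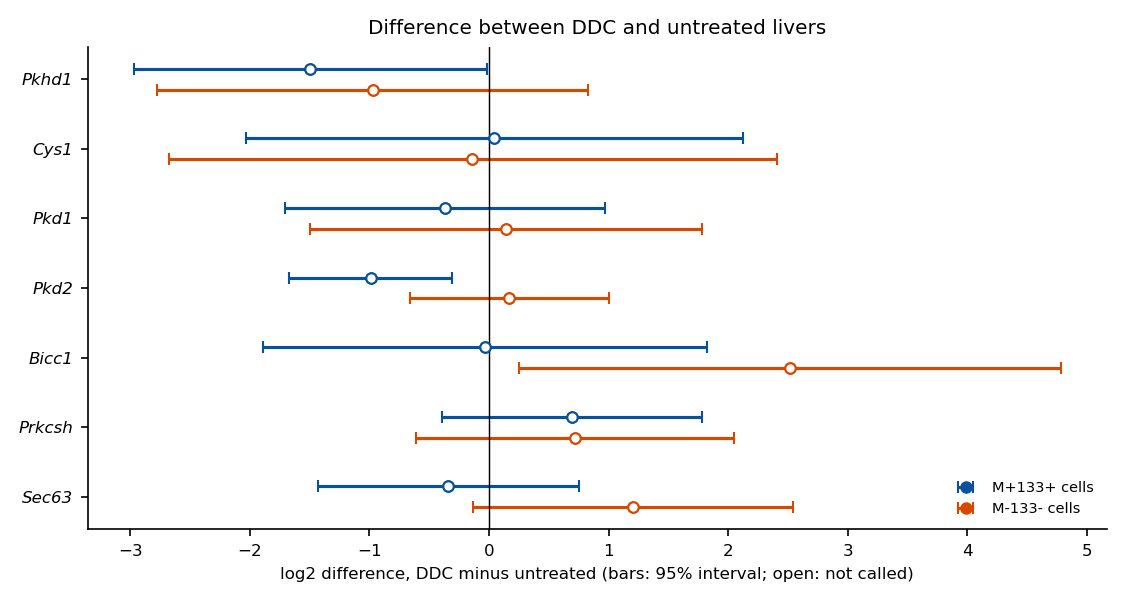
Difference between DDC and untreated livers (log2, horizontal axis) for each gene in M+133+ cells (4 against 4 samples) and in M-133- cells (4 against 2). Bars are 95% intervals of the fit, and no point passed an adjusted p of 0.05. The intervals for Pkd2 and Pkhd1 in M+133+ cells and for Bicc1 in M-133- cells exclude 0 before adjustment.

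The genes nearest to each member in pattern were found by the root mean square difference over the 14 samples after centring each gene on its own mean. For Pkhd1, whose own SD over samples was 4.33, they included Fras1 (0.94), an extracellular matrix protein, and Ildr1 (0.98), a tight junction protein. For Cys1 (own SD 3.03) the nearest were Foxa1 (0.73), a transcription factor of liver and bile duct, Mbp (0.94) and Tmeff1 (1.12). Cys1 was also the member nearest to Pkhd1, at 1.98.

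For Bicc1 (own SD 2.08) the nearest were Tspan6 (0.78), Ston2 (0.80) and Filip1l (0.83). For Pkd2 (own SD 0.77) they were Fam20b (0.33), Bcl6 (0.40) and Arhgef5 (0.40). At their brightest probes Pkd1, Prkcsh and Sec63 varied about as little as Pkd2, with SDs of 0.64, 0.75 and 0.78. Their nearest genes stood at 0.35 (Cdk5r2), 0.43 (Myh9) and 0.45 (Csrp2). At base 5557 the Sec63 samples ran more widely, from -4.88 to 2.91.

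Among transcription factors of bile duct and cyst genes, 7 of 12 were called higher in untreated M+133+ cells and 10 after DDC, and none lower, with list medians of 3.39 and 3.57. Over all genes 3.62% and 6.44% were called higher. Glis3, another cyst gene, differed by 9.28 (adjusted p = 0.00418) and 5.24 (adjusted p = 0.0266). Its mean level in untreated M-133- cells was -7.91, below that of Pkhd1 there (-5.87), so the untreated size rests on a dim signal. Foxa1 differed by 5.58 (adjusted p = 0.0113) and 5.95 (adjusted p = 0.00121), and the epithelial factor Grhl2 by 6.18 (adjusted p = 0.000149) and 5.92 (adjusted p = 1.8e-05). Sox9 of this list is also in the bile duct marker list, as are Prom1 and Cftr.

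RefSeq promoters (GRCm38.p6, 250 bases before to 50 after the start) were matched for 6 of the 7 members, all but Bicc1. CpG pairs in these windows numbered 4 in Pkhd1, 9 in Pkd2, 12 in Cys1, 18 in Pkd1, 23 in Sec63 and 29 in Prkcsh, against a median of 7.0 over all promoters. The 3 members that were called in neither sort comparison had the most, a description of 6 windows.

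Genes of nephronophthisis and Meckel syndrome, which encode parts of the base of the cilium, numbered 27 tested. Of these, 3 were called higher in untreated M+133+ cells, where 3.62% of all genes were (Tmem231 by 6.30, Glis2 by 3.42 and Cep290 by 3.21), and 4 after DDC, where 6.44% of all genes were (Tmem216 by 5.10, Dzip1l by 4.13, Nphp4 by 4.06 and Glis2 by 1.57), with none lower. Some sizes of single genes rest on dim signals. Tmem231 had a mean level of -7.89 in untreated M-133- cells. Nphp4 had means of -3.53 in M+133+ cells and -7.58 in M-133- cells after DDC. The list's medians were 1.38 and 1.57, beside -0.07 and 0.31 over all genes. Dzip1l, like Pkhd1, is a gene of recessive polycystic kidney disease.

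Among 24 genes of transport within the cilium, 3 were called higher in untreated M+133+ cells, and 4 higher and 1 lower after DDC. The shares of all genes were 3.62% higher in untreated livers, and 6.44% higher and 6.48% lower after DDC. Dync2li1 and Dync2h1, parts of the motor that returns cargo from the tip, were called in both, at 7.35 and 4.58 in untreated livers and 7.03 and 5.79 after DDC. Dync2li1 was dim in untreated M-133- cells, with a mean level of -7.69. After DDC its sorts overlapped, with M+133+ samples down to -2.04 and M-133- samples up to -1.48. Bbs1 (6.29) and Bbs2 (3.64) of the BBSome were called after DDC, and Ift20 (-1.41) was the gene called lower, named after its value was seen. Bbs1 and Bbs2 were also dim in M-133- cells after DDC, with mean levels of -6.80 and -6.83. Ift57 was called in untreated livers (3.00, adjusted p = 0.000983) and rose in M-133- cells after DDC (2.36, adjusted p = 0.0253).

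The homologs of the polycystins and of fibrocystin showed no call in any comparison, for 6 genes tested of 7 listed. Of 18 genes of glycoprotein making in the endoplasmic reticulum and polycystic liver disease, the group of Prkcsh and Sec63, none was called in untreated livers and 1 after DDC, Alg8 (3.69, SE 1.03, adjusted p = 0.0277), a glucosyltransferase. The medians of that list were -0.21 and 0.12. Of all genes, 3.62% were called higher and 5.17% lower in untreated livers, and 6.44% and 6.48% after DDC.

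Of 21 genes of cyclic AMP and calcium signalling, which drives fluid secretion into cysts, 2 were called higher and 2 lower in untreated M+133+ cells. Of all genes, 3.62% were called higher and 5.17% lower there. The list genes called higher were the nucleotide receptor P2ry2 (5.95) and the chloride channel Cftr (4.45). Those lower were Rapgef4 (-4.83) and Rapgef3 (-4.81), exchange factors that respond to cyclic AMP. After DDC the calcium release channel Itpr3 (7.02) and Cftr (3.99) were higher and Rapgef4 (-3.33) lower, beside 6.44% and 6.48% of all genes.

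Among 18 growth signalling genes of cyst disease, Lgals3 (6.22) and the receptor Met (4.74) were called higher in untreated M+133+ cells, where 3.62% of all genes were. After DDC 4 were higher, Erbb2 (3.13), Erbb3 (3.08), Met (2.97) and Vegfa (1.40, likewise named afterwards), and Igf1 (-2.69) was lower. The shares of all genes there were 6.44% higher and 6.48% lower. Between treatments, Ccl2 rose in M+133+ cells (5.00, SE 0.81, adjusted p = 0.0202). In M-133- cells Lgals3 rose by 7.38 (SE 1.22, adjusted p = 0.00903) and Sox9, of the transcription factor list, by 3.33 (SE 0.64, adjusted p = 0.0222).

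The authors' deposited table gives the sort comparison as M-133- over M+133+, with lower values in M-133- cells as negative folds, and its values were matched to the probes by feature number. For Pkhd1 at base 11875 the authors' deposited table lists folds of -500 in untreated livers and -166.667 after DDC, each at a false discovery rate of 0.0%. For Cys1 the authors' deposited table lists -83.333 (0.65%) and -37.037 (1.17%). For Bicc1 at base 2974 the authors' deposited table lists -40 (0.0%) and -4.525 (20.13%). For Pkd2 the authors' deposited table lists -5.236 (0.25%) and -1.887 (34.02%) at base 5035, and -22.727 (3.51%) after DDC at base 2902.

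At a false discovery rate of 5%, 3 probes stood on the other side of the threshold from the limma fit. After DDC the authors' deposited table lists Pkhd1 at base 1346 at -12.346 (9.29%) and Bicc1 at base 169 at -6.369 (6.56%), both called by limma. For Sec63 at base 5557 the authors' deposited table lists 6.565, higher in untreated M-133- cells, at a false discovery rate of 1.48%. In the limma fit of all 14 samples the same probe was not called.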

How the data were processed

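The 16 Agilent 1-colour arrays held 14 samples. Per the file headers, the deposited intensity values were made with Agilent Feature Extraction 10.5.1.1, which subtracted background and detrended each array, with annotation on mouse build mm9. The raw spot mean and local background, also deposited as intensity, were used for the normexp alternative (offset 50). A further table deposited by the authors holds signed fold changes, read as a score, beside a percent false discovery rate. The submitters' processing notes name limma but not its settings.

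The 75th percentile of each array's log2 processed signal, without control and outlier spots, was subtracted from it. Repeat spots were averaged, then repeat arrays. Probes had to be well above background in 0.5 or more of the samples of some group, and the brightest such probe stood for a gene. The fit was tested on simulated data, where most of the smallest changes tried were not called. Linear models on all 14 samples (limma 3.58.1, R 4.3.3, variances moderated with an intensity trend) were adjusted by Benjamini-Hochberg over 23309 genes and called under 0.05. Single probes were adjusted over 34588 probes. SE is the moderated standard error, and p-values measure the spread between these samples.

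All 7 members are named with every probe, with the 3 nearest genes of each, leaving out clone-like names, and up to 4 called genes per list and comparison; some of these are not reported here. The members and lists were chosen with earlier results of these data known. RefSeq tables of GRCm38.p6 gave gene names and promoters. Alternatives covered background, scaling, filter, probe choice, variance trend, samples, repeat arrays, replicate number, the number that opens a sample's title, slide, and each sample left out. The precision is limited by the number of arrays.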

Additional observations from a re-analysis of the deposited data

Results flagged for a closer look

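In groups of 4 samples, each end was checked for a value whose gap to the nearest other sample was, as a share of the group's range, above Dixon's 95% critical value. Of 45 groups over the 15 probes, 5 held such a value, where chance gives about 1 in 20. Pkhd1 at base 11875 was low in M+133+ untreated sample 1, at 2.10 against 2.88 to 3.03 in the others. Bicc1 at base 2974 was low in M+133+ untreated sample 3, at 2.13 against 2.46 to 2.49, a small step in a tight group. Cys1 was high in M+133+ DDC sample 1, at 2.70 against 1.15 to 1.40. Pkd2 at base 141 was high in the same sample, at -5.13 against -9.01 to -8.82, and this was the only M+133+ DDC array on which that probe was well above background. Sec63 at base 2250 was high in M-133- DDC sample 3, at 4.23 against 2.34 to 2.65, and the same sample held the highest Bicc1 and Prkcsh levels at their brightest probes.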

How the results depend on the processing

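No member that was called turned direction under any of the 14 single-sample omissions or 13 other settings, among 938 member values of which 885 kept direction and side of the threshold. Leaving out samples 1 at a time, the untreated sort comparison called 2 to 4 members, the 2 without M-133- untreated sample 1 (Bicc1 and Pkd2 lost) and without sample 2 (Bicc1 and Cys1 lost). When probes of a gene were averaged, the comparison after DDC called 4 members in place of 2, and the untreated one 3. The causes were not tested.

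Values that turned sign were all uncalled. By the mean of probes they were Sec63 between untreated sorts (-0.42), Pkd2 (-1.27) and Sec63 (-0.65) for DDC in M-133- cells, and the interactions of Pkd2 (0.38) and Sec63 (0.21). With slide as a fixed block they were Sec63 between untreated sorts (-0.31), Bicc1 for DDC in M+133+ cells (0.17) and Cys1 for DDC in M-133- cells (0.17). Quantile normalization gave Cys1 -0.20 and 0.57 for DDC in the M+ and the M- sort and an interaction of -0.77. The second repeat array alone gave Cys1 -0.04, 0.93 and -0.98 for the same, and a Pkhd1 interaction of 0.05. Slide as a random block gave Cys1 0.38 for DDC in M-133- cells and interactions of -0.24 for Cys1 and 0.01 for Prkcsh.

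With single samples left out, the ranges that crossed 0 were -0.09 to 0.57 (Pkd1) and -0.16 to 0.92 (Sec63) between untreated sorts, and -0.39 to 0.08 (Pkd1) after DDC. For DDC in M+133+ cells they were -0.58 to 0.08 (Pkd1), -0.22 to 0.20 (Bicc1) and -0.31 to 0.23 (Cys1). For DDC in M-133- cells they were -0.09 to 0.38 (Pkd1) and -1.70 to 1.43 (Cys1), and for the interaction -1.38 to 1.74 (Cys1) and -0.38 to 0.55 (Prkcsh).

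Replicate numbers did not pair the samples: correlations of deviations ran from -0.15 to 0.08 over 18 same-numbered pairs. Over the 6 pairs of samples that share the number opening their titles, they ran from -0.01 to 0.11. With the replicate block the members called were 4, 2, 0, 0 and 0, as without it, and all genes called were 1526, 2715, 20, 115 and 24 in place of 2050, 3011, 56, 239 and 60. That block turned Pkd1 (-0.06) and Cys1 (0.24) for DDC in M-133- cells and the interactions of Cys1 (-0.19) and Prkcsh (0.02). With the title number as a random block the same members were called, and all genes called were 2245, 3451, 55, 236 and 86.

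Genes called for DDC in M+133+ cells (56) numbered 94 with normexp, 142 with quantile normalization, 91 with the stricter filter, 87 by the mean of probes, 22 without the variance trend, 21 with slide fixed and 121 with slide random. For DDC in M-133- cells (239) they numbered 38 with only those groups fitted, 146 with slide fixed and 575 with slide random. For the interaction (60) they numbered 39 with normexp, 37 without the trend, 91 with the second array, 11 with slide fixed and 118 with slide random. After DDC (3011) slide fixed left 1143. Quantile normalization put 164 higher and 53 lower for DDC in M-133- cells, where the main split was 143 and 96, and normexp 111 and 159. Normexp gave 521 higher and 1234 lower between untreated sorts, against 844 and 1206. With single samples left out, the genes called ranged from 6 to 114 for DDC in M+133+ cells and from 73 to 283 in M-133- cells, and between untreated sorts they fell to 820 and 1209 without M-133- untreated sample 1 or 2. Without sample 2 of that group the split for DDC in M-133- cells was 77 higher and 166 lower, and that of the interaction 75 and 30 in place of 14 and 46. Without sample 1 the splits were 425 and 395 between untreated sorts and 61 and 12 for DDC in M-133- cells. Scaling moved the median of all genes from -0.36 to 0.07 (quantile) or -0.77 (normexp) for DDC in M-133- cells, and from 0.31 to -0.05 (quantile) after DDC. Small sample numbers, M-133- signals near background and unequal slides limit these data.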
